A study of Mus musculus with 24 samples.

Results

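RNA levels of 9 genes that build the hemidesmosome and anchor the epidermis to its basement membrane were followed in skin of mouse embryos with 2, 1 or no copies of the desmoglein 1 gene cluster. The genes were taken as a fixed list by name: Itga6, Itgb4, Dst, Plec, Col17a1, Col7a1, Lama3, Lamb3 and Cd151, which are 9 of the 54087 gene symbols in the table. All 9 passed the filter on low counts and stood among the 17094 genes tested. No measured value was used to choose them, although earlier results of these data were known.

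Dorsal skin was collected at E18.5, a late embryonic stage at which the epidermis is stratified, from Dsg1+/+ (WT), Dsg1+/- (HET) and Dsg1-/- (KO) embryos of 1 mouse line. In this line the tandem Dsg1c, Dsg1a and Dsg1b genes had been deleted together with CRISPR/Cas9 in C57BL/6J zygotes, and all carriers descend from 1 founder that was backcrossed. The deletion is present in every cell of the embryo, and both sexes were used. Poly(A) RNA of whole skin was sequenced in 24 libraries, whose titles have 2 formats (9 libraries in the first and 15 in the second), and libraries that shared a number in their titles and a genotype were summed, which gave 15 samples with 5 replicates per genotype.

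Hemidesmosomes rivet basal keratinocytes to the basement membrane. At their core the integrin α6β4 (Itga6 and Itgb4) and collagen XVII (Col17a1) span the plasma membrane, the plakins plectin (Plec) and BPAG1e (a product of Dst) tie them to keratin filaments inside the cell, and the tetraspanin Cd151 accompanies the integrin. Outside the cell the integrin binds laminin-332, a trimer that contains the chains encoded by Lama3 and Lamb3, and anchoring fibrils of collagen VII (Col7a1) extend from it into the dermis. Loss of any of these components in humans is known as a cause of skin fragility or blistering.

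The single libraries held 8.98 to 20.96 M counts (M, mega) and the summed samples 15.28 to 33.68 M, of which the 9 genes took from 803 (Itgb4 in WT 1) to 11054 (Col17a1 in KO 1) each. The summed Dsg1 genes measured 806 ± 112 CPM (counts per 1 M counts of the scaled library size) in WT, 422 ± 51.5 in HET and 0.548 ± 0.343 in KO (SD, n = 5 each), so the targeted genes followed the labels in every genotype. The basal keratins Krt5 and Krt14 together measured 5373 ± 389 CPM in WT, 5212 ± 767 in HET and 5297 ± 382 in KO, and none of the cell type markers examined was at 0. In bulk skin, fewer cells of a type and less RNA per cell cannot be told apart. WT 2 stood apart: of its 2 libraries, both titled with number 35, the library of the first title format held 325 CPM of Y-linked transcripts and 0.264 CPM of Xist, and that of the second format 0.154 and 564 CPM, so they go against having come from 1 embryo. The 9 genes differed between these 2 libraries by a median of 0.21 on the log2 scale, the largest being Col7a1 at 0.51, against a median of 0.077 over 72 values in the 8 other numbers with 2 libraries. Results were therefore also computed with the 2 libraries as separate samples and without WT 2.

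None of the 9 genes differed between genotypes at an adjusted p of 0.1 or below in edgeR's quasi-likelihood test (Benjamini-Hochberg over 17094 genes), the limit used throughout. In KO vs WT, 1.15% of all genes tested passed this limit (197 genes). Of the 9 genes 6 were higher and 3 lower in KO than in WT, beside 48.6% of all genes tested that were higher. In the transcript length classes of 4 kb and longer, which hold every member but Cd151, 61.1% to 70.8% of genes were higher. The 9 genes had a median log2 fold change of 0.12 against -0.009 over all genes tested. With 1 sample left out this median ran from 0.063 without WT 1 to 0.32 without WT 4. Itga6, Dst and Col17a1 had an unadjusted p below 0.05 and all 3 were higher in KO, whereas 10.1% of all genes tested were higher at that unadjusted limit. In KO vs HET, 0.333% of genes passed the adjusted limit. Here 8 of the 9 were higher in KO, beside 49.3% of all genes and 63.9% to 70.6% in the classes of 4 kb and longer. The median of the 9 was 0.21 (0.13 without KO 1 to 0.43 without HET 4) against -0.004 over all genes. Again Itga6, Dst and Col17a1 were higher at an unadjusted p below 0.05, beside 8.17% of all genes. In HET vs WT, 0% of genes passed, with 270 genes at an unadjusted p below 0.05 and a lowest adjusted p of any gene of 0.135. In that comparison 0.825% of all genes and none of the 9 were higher at the unadjusted limit. Of the 9, 3 were higher and 6 lower, beside 50.9% of all genes higher. Their median was -0.024 (-0.13 without HET 4 to 0.081 without WT 4). In the first title format alone it was -0.37, and in the second -0.004. In KO vs HET the median of the 9 was 0.45 and 0.23 in these formats, and in KO vs WT 0.048 and 0.145. No difference in any comparison reached an absolute log2 fold change of 1. KO vs WT and KO vs HET share the KO samples, so their values are not independent of each other.

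**Figure D1:**
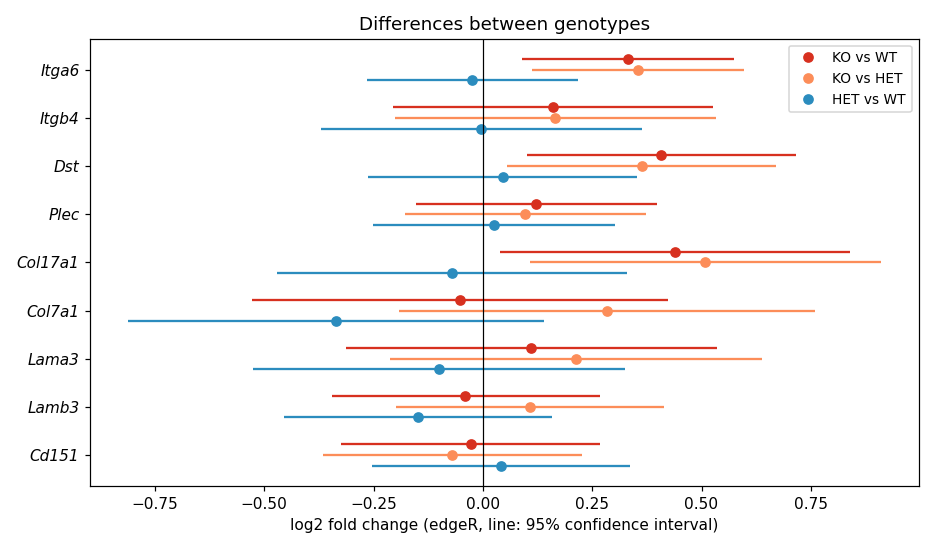
Log2 fold change of each gene (points) with its 95% confidence interval (lines) in KO vs WT, KO vs HET and HET vs WT, from the edgeR fit with 5 samples per genotype. The intervals of Itga6, Dst and Col17a1 lie above 0 in both comparisons with KO, and every interval of HET vs WT includes 0.

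Itga6, which encodes the α6 chain of the hemidesmosomal integrin (chromosome 2, 71745616 to 71858416, plus strand, in GENCODE vM21 on GRCm38), measured 147, 143, 149.5, 189 and 145 CPM in WT 1 to WT 5. The HET samples measured 138, 156, 136, 184 and 148 CPM and the KO samples 218, 195, 178, 226 and 157 CPM. KO 1, KO 2 and KO 4 lay above every WT and HET sample, while KO 3 lay below WT 4 and HET 4, and KO 5 was within the WT range. The log2 fold change was 0.33 (SE 0.11, 95% confidence interval 0.089 to 0.57, edgeR adjusted p = 0.15) in KO vs WT and 0.36 (SE 0.11, 0.11 to 0.6, edgeR adjusted p = 0.181) in KO vs HET. HET and WT had nearly equal means of 152 and 155 CPM.

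Itgb4 encodes the β4 chain, whose long cytoplasmic tail binds the plakins (chromosome 11, 115974709 to 116008412, plus strand). WT samples measured 39, 48, 51, 78 and 46.8 CPM, HET samples 46.4, 59.2, 43.1, 69.7 and 44.1 CPM, and KO samples 63.8, 64.6, 58.7, 60 and 46.8 CPM. All 5 KO values fell inside the WT range, which was set at its upper end by WT 4. The difference of KO vs WT was 0.16 on the log2 scale (95% confidence interval -0.2 to 0.53, edgeR adjusted p = 0.619), an interval that includes both no change and the change of Itga6. Leaving out WT 4 moved it to 0.35 (edgeR adjusted p = 0.159) and leaving out WT 1 moved it to 0.076 (edgeR adjusted p = 0.853), the ends of the range with each sample left out in turn.

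Cd151, the tetraspanin partner of laminin-binding integrins (chromosome 7, 141467392 to 141471473, plus strand), measured 97.4, 101, 111, 77 and 96.6 CPM in WT, 95.1, 104, 124, 85.6 and 87.2 CPM in HET, and 78.3, 87.7, 84.3, 130.4 and 92.4 CPM in KO. The genotypes overlapped throughout, and WT 4 and HET 4, where the other members tended to be highest, held the lowest Cd151 of their genotypes. KO differed from WT by -0.028 (95% confidence interval -0.32 to 0.27, edgeR adjusted p = 0.926) and from HET by -0.07 (-0.36 to 0.23, edgeR adjusted p = 0.835). The upper end of the first interval lies below the 0.33 estimated for Itga6, but the interval of Itga6, 0.089 to 0.57, overlaps it. The ratio of Cd151 to Itga6 did not pass in KO vs WT (exact permutation p = 0.103, adjusted p = 0.222). In the RefSeq annotation of GRCm38.p6, the 250 bases before the first of 2 Cd151 starts (chr7:141467112-141467361, plus strand) hold the GC box GGGCGG in 2 copies, given in capitals, and are shown because this gene ran opposite to the others from sample to sample:
Cd151: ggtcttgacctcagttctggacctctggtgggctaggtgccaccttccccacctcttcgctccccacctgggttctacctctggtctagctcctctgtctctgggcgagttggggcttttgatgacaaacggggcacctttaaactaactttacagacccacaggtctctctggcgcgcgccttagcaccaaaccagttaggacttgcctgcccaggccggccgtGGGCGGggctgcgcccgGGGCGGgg

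Dst, the plakin gene that gives BPAG1e in keratinocytes (chromosome 1, 33908225 to 34308661, plus strand), measured 181, 211, 183, 245 and 163 CPM in WT, 210, 187, 165, 268 and 186 CPM in HET, and 306, 312, 234, 239.5 and 213 CPM in KO. KO 1 and KO 2 were above every other sample, and all 5 KO samples were above 4 of the 5 WT samples. The log2 fold change was 0.41 (SE 0.14, 95% confidence interval 0.1 to 0.72, edgeR adjusted p = 0.16) in KO vs WT and 0.36 (SE 0.14, 0.055 to 0.67, edgeR adjusted p = 0.247) in KO vs HET, and HET differed from WT by 0.045. The annotation lists 14 coding transcripts of Dst, and the epithelial, neuronal and muscle forms of this gene start at different places, so that a gene count pools them. RefSeq gives windows before 2 Dst starts that lie 148.7 kb apart (chr1:34011345-34011594 and chr1:34160010-34160259, both plus strand), shown to make this visible, with any GC box in capitals:
Dst, upstream start: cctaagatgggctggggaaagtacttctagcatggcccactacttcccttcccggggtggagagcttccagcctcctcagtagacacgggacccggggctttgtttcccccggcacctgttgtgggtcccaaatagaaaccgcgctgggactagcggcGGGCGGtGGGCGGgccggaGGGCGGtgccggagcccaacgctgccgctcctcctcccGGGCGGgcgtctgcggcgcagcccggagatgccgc
Dst, downstream start: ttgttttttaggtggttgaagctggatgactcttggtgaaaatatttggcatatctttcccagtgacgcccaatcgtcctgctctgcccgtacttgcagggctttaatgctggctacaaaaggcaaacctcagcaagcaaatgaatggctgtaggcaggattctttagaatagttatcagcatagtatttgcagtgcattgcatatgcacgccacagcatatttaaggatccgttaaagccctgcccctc
The upstream window held 4 GC boxes and 68.8% G and C, the downstream window no GC box and 45.2%, against a median of 52.4% over 32851 promoter windows of this length. Which start the counted reads came from cannot be read from a gene count.

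Plec, the plakin that links both integrin and filaments in many tissues (chromosome 15, 76170974 to 76232574, minus strand), measured 200.1, 288, 247, 282 and 206 CPM in WT, 291, 246, 207, 266 and 235.5 CPM in HET, and 326, 244, 278.5, 269 and 214 CPM in KO. Only KO 1 lay above every WT and HET sample. KO vs WT was 0.12 (SE 0.13, 95% confidence interval -0.15 to 0.4, edgeR adjusted p = 0.618), and with each sample left out it ran from 0.039 without KO 1 to 0.19 without KO 5. Plec also pools isoforms, with 21 coding transcripts annotated, and 1.13% of its exon bases are shared with Parp10 on the same strand.

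Col17a1, the transmembrane collagen of the hemidesmosome (chromosome 19, 47646344 to 47692094, minus strand), had the largest point estimate of the 9 genes in both comparisons with KO. WT samples measured 179, 202, 210.5, 336 and 218 CPM and HET samples 173, 218.5, 178, 309 and 213.5 CPM. KO samples measured 332.2, 374, 318, 311 and 218 CPM, so that KO 1 to KO 4 were above every HET sample. KO 2 was also above every WT sample, KO 1, KO 3 and KO 4 were above every WT sample except WT 4, and KO 5 was at the level of WT 5. Means were 229 ± 61.6 CPM in WT, 218 ± 54.6 in HET and 311 ± 57.4 in KO (SD, n = 5 each). The log2 fold change was 0.44 (SE 0.19, 95% confidence interval 0.039 to 0.84, edgeR adjusted p = 0.224) in KO vs WT and 0.51 (SE 0.19, 0.11 to 0.91, edgeR adjusted p = 0.222) in KO vs HET. The 250 bases before its RefSeq start (GRCm38.p6, chr19:47692043-47692292, minus strand) hold the letters TATAAA at 2 places, given in capitals, and are shown for the gene with the largest difference:
Col17a1: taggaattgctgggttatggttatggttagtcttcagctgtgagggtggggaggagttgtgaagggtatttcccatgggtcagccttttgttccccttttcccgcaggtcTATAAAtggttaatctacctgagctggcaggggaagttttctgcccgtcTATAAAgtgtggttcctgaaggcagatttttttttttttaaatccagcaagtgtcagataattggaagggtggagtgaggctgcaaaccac
The letters TATAAA or their reverse complement occur in 12.4% of the 32851 windows, and the GC box or its reverse complement CCGCCC in 32.7%. RefSeq windows were found for 5 of the 9 genes (Dst, Lamb3, Cd151, Col7a1 and Col17a1, 8 windows in all), and not for Itga6, Itgb4, Plec and Lama3. The AP-1 letters TGANTCA, present in 6.75% of all windows on either strand, were in none of the 8, while the GC box was in 1 window each of Dst, Cd151 and Col7a1. These are matches of letters and not tested sites.

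Lama3 encodes the α3 chain of laminin-332 (chromosome 18, plus strand). It measured 60.5, 72.8, 60.2, 118 and 73.5 CPM in WT, 64.1, 59.8, 56.5, 111 and 68.2 CPM in HET, and 88.7, 93.1, 85.3, 81.4 and 67.8 CPM in KO. WT 4 and HET 4 exceeded every KO sample, and KO 1 to KO 4 exceeded the 4 other WT and the 4 other HET samples. The difference of KO vs WT was 0.11 (SE 0.2, 95% confidence interval -0.31 to 0.54, edgeR adjusted p = 0.778), and with each sample left out in turn it ran from 0.034 without WT 3 (0.042 without WT 1) to 0.32 (edgeR adjusted p = 0.269) without WT 4.

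Lamb3, the β3 chain of the same trimer (chromosome 1, 193207699 to 193343878, plus strand), measured 69.3, 80.2, 77.9, 121 and 79.6 CPM in WT, 72.2, 73, 71.9, 100.5 and 69.1 CPM in HET, and 83, 97.9, 84.1, 83.5 and 67.9 CPM in KO. Again WT 4 held the highest value of all, and KO 5 the lowest. KO vs WT was -0.04 (SE 0.14, 95% confidence interval -0.35 to 0.27, edgeR adjusted p = 0.9), and the sign changed to 0.12 without WT 4.

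Col7a1, the collagen of the anchoring fibrils (chromosome 9, 108953586 to 108984875, plus strand), had a standard deviation of 31.1% of its mean in WT, 23.8% in HET and 30.5% in KO. WT samples measured 137.5, 118, 121.5, 231 and 140.3 CPM, HET samples 109.7, 105, 92.1, 166 and 120.4 CPM, and KO samples 211, 127, 164, 100 and 119 CPM. The KO samples spanned a 2.11-fold range, with KO 1 near WT 4 and KO 4 near the lowest HET sample. The log2 fold change was -0.052 (SE 0.22, 95% confidence interval -0.53 to 0.42, edgeR adjusted p = 0.916) in KO vs WT and 0.28 (-0.19 to 0.76, edgeR adjusted p = 0.552) in KO vs HET. The largest HET vs WT difference of the 9 genes was also that of Col7a1, at -0.34 (SE 0.22, -0.81 to 0.14, edgeR adjusted p = 1), and it was -0.12 without WT 4.

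**Figure D2:**
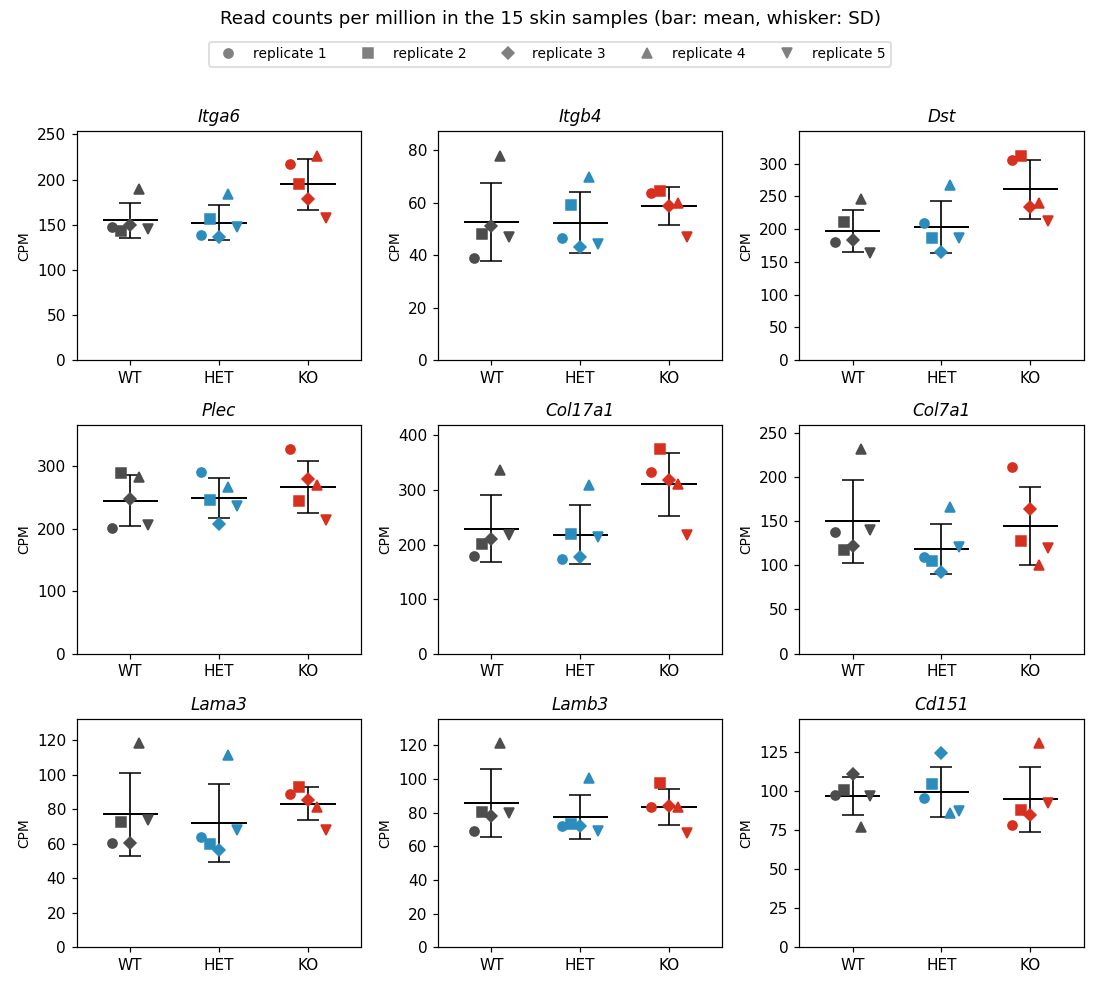
CPM of the 9 genes in each of the 15 samples, 1 panel per gene, with the genotype on the x axis and the replicate as the symbol (horizontal bar, mean; whisker, SD; n = 5). WT 4 was the highest WT sample for 7 of the genes and the lowest for Cd151, and 3 KO samples of Itga6 and 2 of Dst were above every WT and HET sample.

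Compared per kilobase of the longest coding transcript, the order of the WT levels was Cd151 (51.7 CPM per kb), Col17a1 (41), Itga6 (35.9), Lamb3 (17.6), Col7a1 (16.2), Plec (15.8), Itgb4 (8.46), Dst (8.45) and Lama3 (7.31). Itga6 was above Lamb3 in 5 of 5 WT samples and Plec above Itgb4 in 5 of 5. Cd151 was above Col17a1 and Col17a1 above Itga6 in 4 of 5 each, while Lamb3 and Col7a1, Col7a1 and Plec, and Itgb4 and Dst could not be ordered, each pair holding its order in 3 of 5. The order depends on the transcript taken, most of all for Dst, which measured 26.5 CPM per kb with the median transcript length and 4.78 with the union of its exons.

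Ratios between members of 1 complex do not depend on how libraries are scaled. They can still move with the length trend described below, whose part in them was not tested. By the longest coding transcript Lamb3, Plec and Cd151 are shorter than Lama3, Dst and Itga6, their partners in the ratios, and Itgb4 is longer than Itga6. By the median coding transcript Plec is longer than Dst (14855 against 7413 bases). In 4 ratios and 3 comparisons, none of the 12 tests passed an adjusted p of 0.1 (two-sided exact permutation tests, 5 against 5, smallest possible p 0.00794). The ratio of Lamb3 to Lama3 was 0.999 in KO and 1.13 in WT, a log2 difference of -0.17 (exact permutation p = 0.0238, adjusted p = 0.222), with 3 of 5 KO samples below every WT sample. Plec to Dst was 1.02 in KO and 1.24 in WT, a log2 difference of -0.28 (exact permutation p = 0.0397, adjusted p = 0.222), also with 3 of 5 KO samples below every WT sample. The 2 chains of integrin α6β4 gave a ratio of Itgb4 to Itga6 of 0.302 in KO, 0.34 in HET and 0.332 in WT, and Cd151 to Itga6 was 0.482, 0.649 and 0.622. Relative to Krt5 plus Krt14, keratins of the same basal cell layer, none of 27 tests passed with all samples, and 9 did without WT 4. Itga6 relative to these keratins was higher in all 5 KO samples than in all 5 HET samples, by 0.32 on the log2 scale (exact permutation p = 0.00794, adjusted p = 0.214), and higher in KO than in WT by 0.35 (exact permutation p = 0.0476, adjusted p = 0.257). Dst and Col17a1 were above every HET sample in 4 of 5 KO samples by this measure, by 0.33 and 0.49. How many of all genes separate KO from HET in this way was not counted. In CPM, 63.9% of genes of 4 to 6 kb, the class of Itga6 and Col17a1, were higher in KO than in HET. For genes of 10 kb and longer, the class of Dst, the share was 70.6%.

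From sample to sample the genes moved together, with Cd151 the exception. Over the 15 samples, each taken as the deviation of log2 CPM from its genotype mean, the correlation was 0.935 between Col17a1 and Lamb3, 0.93 between Lama3 and Lamb3, 0.923 between Itgb4 and Col17a1 and 0.83 between the integrin chains. Cd151 correlated negatively with each of the 8 others, from -0.222 with Itga6 to -0.858 with Col7a1. These correlations are descriptions, and the points share libraries, depth and scaling.

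The samples also differed in how log2 CPM depended on transcript length across all genes, given as a length slope per sample (the slope of log2 CPM, relative to the mean of all samples, on log2 length, with the 9 genes left out). The slope ran from -0.107 in WT 1 to 0.083 in WT 4, from -0.085 in HET 3 to 0.042 in HET 4 and from -0.019 in KO 5 to 0.151 in KO 1. Within genotypes the deviation of 8 members rose with this slope, with Pearson's r from 0.583 (Itga6) to 0.849 (Col7a1) and Spearman's rho from 0.407 (Itga6) to 0.811 (Plec), while Cd151, by far the shortest of the 9 transcripts at 1.865 kb, had r = -0.73 and rho = -0.804. All 9 permutation tests of r passed an adjusted p of 0.05, the highest being 0.0415 (Itga6), and 7 of 9 of rho did, Itga6 (0.168) and Itgb4 (0.0505) being the exceptions. The slope is fitted to the lengths of all other genes, so long genes in general tend to rise with it and short genes to fall. How many of all genes pass such a test was not counted, so these counts do not set the 9 genes apart. Without WT 4 and KO 1, the samples farthest in slope, r lay between 0.568 and 0.762 for 7 of the genes, was -0.6 for Cd151 and was 0.322 for Itga6. A second measure, the mean log2 CPM of 5 basal keratinocyte markers (Krt5, Krt14, Krt15, Trp63 and Cdh3), gave r from 0.462 (Col7a1, permutation test, adjusted p = 0.0873) to 0.714 (Dst, adjusted p = 0.0101) and rho from 0.371 to 0.661 for 7 genes. The adjusted p of r was above 0.05 for Col7a1, Plec (r = 0.286) and Cd151 (r = -0.344), and that of rho for these 3 and Lama3 (0.0532), Col7a1 being at 0.24. Without HET 3 and HET 4, the samples farthest in this measure, r for the 7 genes lay between 0.153 and 0.507. Against the mean of 8 dermal fibroblast markers, Cd151 had r = -0.801 and rho = -0.811 (permutation test, adjusted p = 0.0596 and 0.03) and Col7a1 r = 0.644 and rho = 0.668 (permutation test, adjusted p = 0.0796 and 0.05), r being -0.591 and 0.445 without KO 1 and KO 4, and the 7 other genes had r between -0.174 and 0.262. These were 27 relations in all, adjusted within each measure. For the marker means too, the share of all genes with such relations was not counted.

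**Figure D3:**
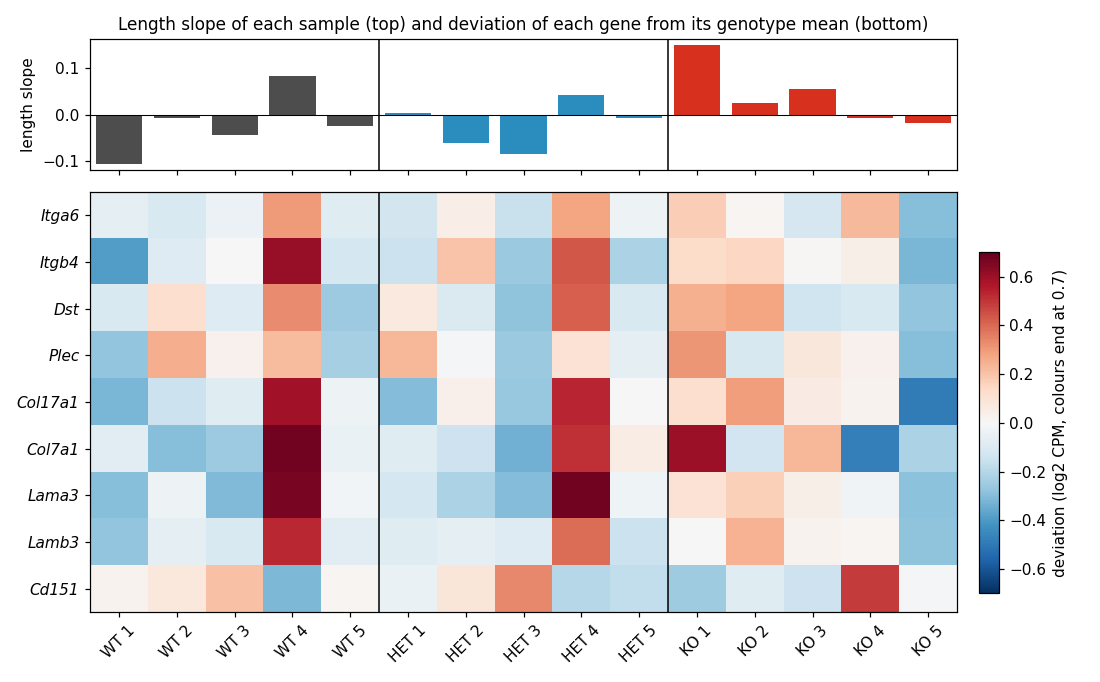
Top, length slope of each of the 15 samples (bars coloured by genotype). Bottom, deviation of each gene in each sample from its genotype mean (log2 CPM, red above and blue below). WT 4 and HET 4, the samples with the highest slope of their genotypes, are red in every row but Cd151.

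The 10 genes whose deviations followed the mean of the 9 most closely, among 13533 candidates, were Celsr1, Tet3, Egfr, Arhgef12, Frs2, Sipa1l3, Tenm2, Fat2, Camsap1 and Wdfy3, with Pearson's r of 0.95 to 0.969 over the 15 samples. Their longest coding transcripts ran from 6.42 kb (Frs2) to 14.5 kb (Fat2). The genes most opposed were Chrac1 (r = -0.931), Zwint, St3gal4, Rpain and Commd9, with transcripts of 0.871 to 2.68 kb.

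Transcript length also moved with the genotype difference. The Spearman correlation of log2 fold change with length across 14571 genes (85.2% of those tested) was 0.242 in KO vs WT, 0.269 in KO vs HET and 0.007 in HET vs WT. This correlation is across genes, which are not independent replicates. In KO vs WT the median log2 fold change was -0.138 for genes under 1 kb, 0.059 for 4 to 6 kb, 0.11 for 6 to 10 kb and 0.128 for 10 kb and longer. Against the class of their own length, Itga6 (4.31 kb), Col17a1 (5.59 kb) and Dst (23.3 kb) stood above the median, Itgb4 (6.21 kb) was slightly above it, Plec and Lama3 were close to it, and Lamb3 (4.87 kb) and Col7a1 (9.25 kb) were below it. Cd151 (1.865 kb), at -0.028, was slightly above the median of -0.071 for 1 to 2 kb. The length of Dst used here and in the correction below is that of its longest coding transcript, while its median coding transcript has 7413 bases. Its class and corrected value depend on this choice, and other lengths were not tried. With a per-sample correction for the length trend, Itga6 was 0.29 (edgeR adjusted p = 0.169), Col17a1 0.38 (edgeR adjusted p = 0.238) and Dst 0.24 (edgeR adjusted p = 0.205) in KO vs WT. With the length slope as a covariate these were 0.23 (edgeR unadjusted p = 0.0454), 0.25 (0.126) and 0.23 (0.0604), so that Col17a1 and Dst no longer had an unadjusted p below 0.05. In KO vs HET the same fit gave 0.25 (0.0332) for Itga6, 0.29 (0.076) for Col17a1 and 0.19 (0.121) for Dst. In KO vs WT Col7a1 moved to -0.38 (edgeR adjusted p = 0.18), and the median of the 9 was -0.009.

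**Figure D4:**
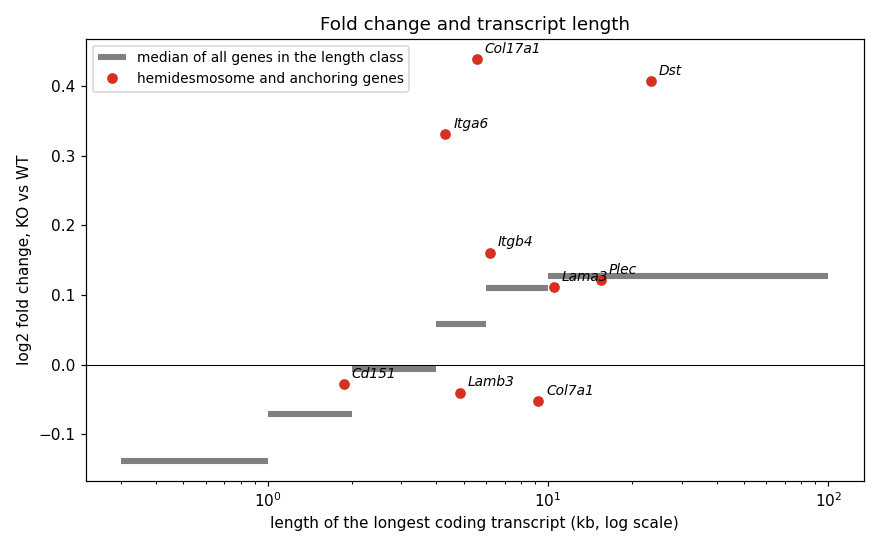
Log2 fold change in KO vs WT against the length of the longest coding transcript (kb, log scale). Grey bars give the median of all genes in a length class (the shortest and longest classes are open-ended) and red points the 9 genes. The grey medians climb from -0.138 to 0.128, and Col17a1, Dst and Itga6 lie farthest above the bars of their classes.

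Other genes of the dermal-epidermal junction showed no called change. Of 16 further basement membrane genes (laminin chains, nidogens, perlecan, agrin and type IV and XVIII collagens among them), 9 were higher and 7 lower in KO than in WT, with a median of 0.028. None passed the adjusted limit. Of 13 basal integrins and linkers 7 were higher and 6 lower, with a median of 0.017. Again none passed, while Itgb6 (0.48), Fermt1 (0.38), the gene of kindlin-1, and Dag1 (0.24), the dystroglycan gene, were higher at an unadjusted p below 0.05, as were 10.1% of all genes tested. Fermt1 measured 21.1 to 24.4 CPM in WT and 25.2 to 33.5 CPM in KO, with an edgeR adjusted p of 0.156. The HET samples, at 17.8 to 32.4 CPM, overlapped both. How many of all genes separate KO from WT in this way was not counted. Itga3, the α chain of the other laminin-binding integrin of keratinocytes, gave 0.21 and its partner Itgb1 -0.088. Of the 5 genes of the Fraser complex, which holds the basement membrane to the dermis before birth, 3 were higher and 2 lower, with none passing.

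No marker of the other cell types in whole skin passed the limit in KO vs WT. All 8 dermal fibroblast markers were lower in KO than in WT (median -0.23, summed level 14900 to 29900 CPM in KO and 22810 to 36990 CPM in WT), as were 7 of 8 skeletal muscle markers (9578 to 18770 against 12710 to 21830 CPM) and 5 of 5 Schwann cell markers (47.5 to 74.7 against 61.7 to 75.8 CPM). All 6 suprabasal keratinocyte markers were higher (median 0.27, 68960 to 103100 against 55200 to 79000 CPM), and 4 of 5 basal keratinocyte markers (median 0.16, 6084 to 7397 against 6041 to 6842 CPM). Hair follicle markers were 5 higher and 1 lower, endothelial markers 5 and 1, and leukocyte markers 2 and 2. Among the leukocyte markers S100a8, a neutrophil gene that keratinocytes also express under stress, had a log2 fold change of 1.71 in KO vs WT (SE 0.45, edgeR adjusted p = 0.102), at 3.35 to 7.5 CPM in WT and 6 to 32.9 CPM in KO, and is named here after its value was seen. The part of cell composition in the values of the 9 genes was not tested, and fits with a marker mean as a covariate gave the following values. With the basal keratinocyte mean, KO vs WT was 0.25 for Itga6 (edgeR unadjusted p = 0.0287), 0.27 for Dst (0.0345) and 0.28 for Col17a1 (0.0952), and KO vs HET was 0.23 (0.0514), 0.17 (0.19) and 0.29 (0.11), so that 1 of the 3 genes in KO vs WT and all 3 in KO vs HET no longer had an unadjusted p below 0.05. With the dermal fibroblast mean the values in KO vs WT were 0.29, 0.49 and 0.49, and with the skeletal muscle mean 0.29, 0.37 and 0.36.

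Across 34 alternative fits, comprising other normalizations, filters, tools, covariates, library sets and each sample left out in turn, Itga6 ranged from 0.23 to 0.41, Dst from 0.23 to 0.5 and Col17a1 from 0.25 to 0.62 in KO vs WT, all above 0. Whether they passed the limit depended on the setting, at 6, 5 and 4 of the 34 fits. In the fits where any of them passed, 7.18% to 23.7% of all genes did so too, against 1.15% as reported. Leaving out WT 4 or KO 5 gave a call for all 3 (edgeR adjusted p = 0.0562, 0.0683 and 0.058 without WT 4, and 0.0631, 0.0811 and 0.0958 without KO 5). Of all genes, 9.74% passed without WT 4 and 10.9% without KO 5. With the libraries of number 35 apart, Itga6 passed at an edgeR adjusted p of 0.089, Dst reached 0.113 and Col17a1 0.141, and without WT 2 they were at 0.283, 0.249 and 0.376. The shares of all genes passing were 7.18% with number 35 apart and 0.17% without WT 2. Within the first title format alone (3 libraries per genotype) the 3 genes were at 0.25, 0.38 and 0.41, and within the second (5 per genotype) at 0.33, 0.41 and 0.45, with no call in either. No other member passed in KO vs WT in any of the 34 fits, and none of the 9 did in HET vs WT.

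**Figure D5:**
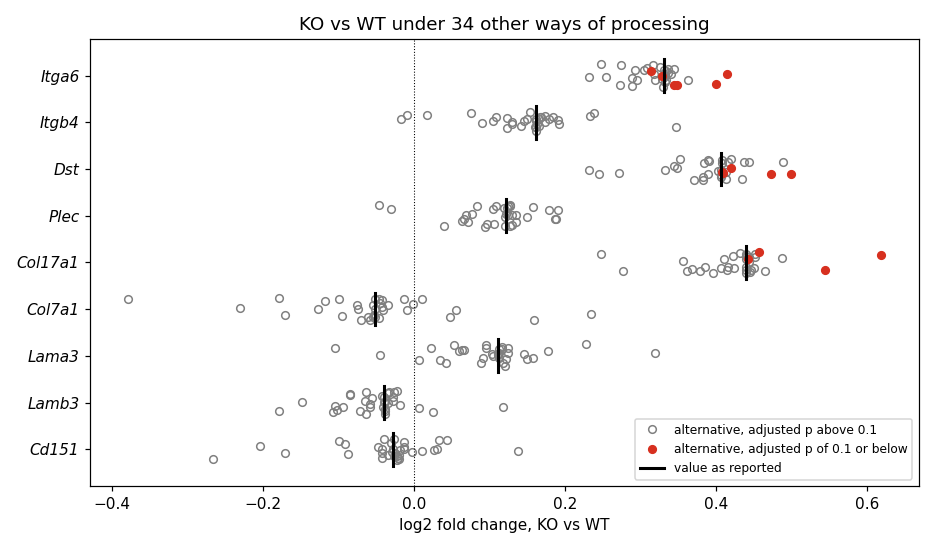
Log2 fold change in KO vs WT of each gene under 34 alternative fits (circles; filled red where the adjusted p was 0.1 or below) and as reported (black bar). Itga6, Dst and Col17a1 lie to the right of 0 in every fit, and the filled circles belong to these 3 genes. In the fits with filled circles, 7.18% to 23.7% of all genes passed the same limit.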

How the data were processed

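Raw read counts per gene symbol, which the authors deposited as 1 table for 24 poly(A), strand-preserving skin libraries, were used as deposited. The submitters' processing notes name STAR and HTSeq without versions, and hg19, a human build, for mouse samples. The mouse build, annotation and use of strand are not given in the sources used here, so coordinates and lengths come from GENCODE vM21 (GRCm38) and promoter windows from RefSeq (GRCm38.p6). On the opposite strand, exons of other genes cover 7.66% of Itgb4, 7.04% of Cd151, 3.63% of Dst and 1.83% of Lama3 exon bases, which matters if strand was not used. Libraries sharing a title number and genotype were summed to 15 samples, numbered by ascending title number. The labels do not say what the number stands for, and p-values measure the spread between these samples.

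Counts were filtered with filterByExpr, scaled by TMM factors and fitted in edgeR 4.0.16 (R 4.3.3; robust quasi-likelihood, all genotypes in 1 fit), with Benjamini-Hochberg adjustment over 17094 genes and a limit of 0.1, which the study used for junction genes. CPM are per TMM-adjusted library size, and log2 CPM used a prior count of 1. Alternatives used DESeq2 1.42.0, limma 3.58.1, other scalings, filters, covariates and samples left out. The fits were run on simulated counts with planted changes far larger than those of the 9 genes and without a length trend. Recovery of differences of the size seen here was not tested. Ratios were compared by exact permutation tests (SciPy), correlations with 100000 permutations within genotypes. The 9 genes and the gene lists were chosen with earlier results of these data known. Named genes are the 9, the genes of the 3 junction lists, Krt5, Krt14, Dsg1, the marker lists and the 10 closest and 5 most opposed genes by correlation with the mean of the 9 (mean count of at least 50). The 5 most opposed were added to the rule after the values were seen.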

Additional observations from a re-analysis of the deposited data

Results flagged for a closer look

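Single samples stood far from the other 4 of their genotype in 9 of 42 groups of 5 values examined (CPM of each gene, 4 ratios and the length slope), by a gap to the nearest sample that took up most of the range of the group. Chance flags about 1 in 20 groups, and the groups share samples, so these are not 9 separate events. WT 4 accounted for 6 of them: it was the highest WT sample for Itga6 (189.4 CPM, next 149.5), Col17a1 (336.1 CPM, next 218.1), Col7a1 (230.9 CPM, next 140.3), Lama3 (118.3 CPM, next 73.5) and Lamb3 (121.2 CPM, next 80.2), and the lowest for the ratio of Cd151 to Itga6 (0.4065, next 0.663). HET 4 was the highest HET sample for Lama3 (111.3 CPM, next 68.2) and Lamb3 (100.5 CPM, next 73). KO 4 was the highest KO sample for Cd151 (130.4 CPM, next 92.4). The 2 libraries of WT 4 were alike in length slope (0.081 and 0.077), as in the summed sample (0.083), and HET 4 was sequenced in 1 library. The length slope itself was not set apart in any genotype by the same measure.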

How the results depend on the processing

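No paired analysis was possible because no title number is shared between genotypes. Of 918 alternative values of the 9 genes 827 kept direction and side of the limit, 25 passed it in the same direction and 66 changed sign, none of them past the limit. In KO vs WT, 3 genes passed with the 24 libraries as separate samples, 3 in limma-voom on 24 libraries, 1 with number 35 apart and 2 in DESeq2, against 0 as reported, and 0 to 3 with a sample left out (3 without WT 4 and 3 without KO 5). In the same order, 23.7%, 10.4%, 7.18% and 8.71% of all genes passed, against 1.15% as reported. The share was 9.74% without WT 4 and 10.9% without KO 5. In KO vs HET the counts of the 9 genes were 4, 3, 0 and 1, with 0 to 2 on leaving out a sample (2 without KO 5). There 24.6%, 6.58%, 0.511% and 4.84% of all genes passed, and 5.44% without KO 5, against 0.333% as reported. In HET vs WT the count of the 9 genes was 0 in every fit. The 24 separate libraries count 9 title numbers more than once. Of the ratios within complexes 1 passed in the second title format alone (Lamb3 to Lama3, KO vs WT, -0.22, adjusted p = 0.0952), and 0 to 3 with a sample left out (3 without HET 4, 2 without WT 4). Of those to Krt5 plus Krt14, 0 to 9 passed with a sample left out (9 without WT 4). The 9 were Itga6, Dst and Col17a1 in both comparisons with KO, Itgb4 and Lama3 in KO vs WT, and Itgb4 in HET vs WT. How many of all genes pass in this way without WT 4 was not counted.

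Sign changes were as follows. First title format alone, KO vs WT: Itgb4 -0.017, Col7a1 0.048, and HET vs WT: Dst -0.19, Plec -0.11. Second format alone, HET vs WT: Itgb4 0.11 and the ratio of Col17a1 to Krt5 plus Krt14 0.019. With 24 libraries, HET vs WT: Dst -0.053, Plec -0.046. Number 35 apart, HET vs WT: Itgb4 0.014, Plec -0.014. With presence in both formats as a covariate, HET vs WT: Itgb4 0.012. Dermal fibroblast covariate, KO vs WT: Col7a1 0.23, Lamb3 0.006, and HET vs WT: Itgb4 0.004, Cd151 -0.004. Basal keratinocyte covariate, KO vs WT: Lama3 -0.045, Cd151 0.031, KO vs HET: Itgb4 -0.032, Lamb3 -0.048, Cd151 0.027, and HET vs WT: Itga6 0.015, Itgb4 0.049. Length slope covariate, KO vs WT: Itgb4 -0.009, Plec -0.047, Lama3 -0.1, Cd151 0.14, KO vs HET: Itgb4 -0.038, Plec -0.081, Col7a1 -0.056, Lama3 -0.023, Lamb3 -0.053, Cd151 0.11, and HET vs WT: Itgb4 0.029. Length trend correction, KO vs WT: Plec -0.03, Cd151 0.043, KO vs HET: Plec -0.028, and HET vs WT: Itgb4 0.007, Dst -0.003, Plec -0.002. The causes were not tested.

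With each sample left out, log2 fold changes that changed sign ranged in KO vs WT from -0.23 to 0.16 for Col7a1, -0.11 to 0.12 for Lamb3 and -0.17 to 0.033 for Cd151. In KO vs HET Cd151 ranged from -0.21 to 0.024. In HET vs WT the ranges were -0.101 to 0.06 for Itga6, -0.13 to 0.18 for Itgb4, -0.076 to 0.14 for Dst, -0.039 to 0.091 for Plec, -0.23 to 0.11 for Col17a1, -0.31 to 0.11 for Lama3, -0.26 to 0.011 for Lamb3 and -0.049 to 0.096 for Cd151. Ratios that changed sign ranged in HET vs WT from -0.045 to 0.11 for Itgb4 to Itga6, -0.087 to 0.036 for Lamb3 to Lama3, -0.049 to 0.072 for Plec to Dst and -0.093 to 0.18 for Cd151 to Itga6. Relative to Krt5 plus Krt14, HET vs WT ranged from -0.011 to 0.14 for Itga6, -0.043 to 0.26 for Itgb4, -0.104 to 0.17 for Col17a1, -0.16 to 0.16 for Lama3, -0.16 to 0.091 for Lamb3 and -0.048 to 0.19 for Cd151, KO vs WT from -0.16 to 0.17 for Col7a1, -0.081 to 0.17 for Lamb3 and -0.16 to 0.062 for Cd151, and KO vs HET from -0.002 to 0.14 for Plec and -0.25 to 0.027 for Cd151.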
